A study of Mus musculus with 17 samples.

Results

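Toll-like receptors, the NLRP3 inflammasome and the interleukin-1 (IL-1) cytokines with their antagonist were examined in the mouse heart 5 days after myocardial infarction (MI). The set is a list of named genes: the receptors Tlr2, Tlr4 and Tlr7, the adaptor Myd88, the inflammasome genes Nlrp3, Pycard and Casp1, the cytokines Il1b and Il18, and the antagonist Il1rn, which are 10 of the 31647 rows of the count table. In wild-type male C57BL/6J mice, young adults at surgery, the left anterior descending coronary artery was either ligated permanently or exposed without ligation in a sham operation. The infarct zone (IZ) of 9 ligated hearts was compared with left ventricular tissue of 8 sham hearts, each library coming from 1 mouse, so that the 2 groups differed in surgery and also in whether the tissue was infarcted wall or intact ventricle. RNA was measured by MACE-Seq, which counts the 3′ end of each transcript after removal of PCR copies with molecular identifiers.

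Toll-like receptors detect microbial molecules and also molecules released from damaged tissue. TLR2 and TLR4 act at the cell surface and TLR7 binds single-stranded RNA in endosomes, and all of them pass their signal through the adaptor MYD88 to the transcription factor NF-kappaB, which activates genes such as Il1b. The precursors of IL-1β and IL-18 are inactive until caspase-1 cuts them inside an inflammasome, a complex of a sensor such as NLRP3, the adaptor ASC (encoded by Pycard) and caspase-1. The IL-1 receptor antagonist, encoded by Il1rn, occupies the IL-1 receptor without activating it. In the infarcted heart these genes are known mainly from infiltrating neutrophils, monocytes and macrophages, and the pathway is known as a driver of the early inflammatory phase. Transcript counts do not show whether a precursor was cut or secreted.

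The regions before the transcription starts of the cytokine, its antagonist, a receptor and the adaptor are shown because the results turn on Il1b and Il1rn, whose ratio differed between infarcts, and on Tlr2 and Myd88, which rose with little spread. RefSeq windows of 250 bases upstream of the start (build GRCm38.p6) were given for 8 of the 10 genes, as 11 windows. No window was given for Tlr4 or Tlr7. Capitals mark letters that match a searched motif on either strand.
Il1b, chr2:129371140-129371389, minus strand, capitals mark the TATA motif TATAAA: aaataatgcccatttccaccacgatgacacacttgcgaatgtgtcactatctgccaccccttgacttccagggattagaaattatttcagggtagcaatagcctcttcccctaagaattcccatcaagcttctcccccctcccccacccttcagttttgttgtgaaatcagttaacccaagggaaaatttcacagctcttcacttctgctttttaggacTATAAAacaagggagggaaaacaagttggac
Il1rn, upstream start, chr2:24336610-24336859, plus strand, capitals mark the AP-1 motif TGANTCA: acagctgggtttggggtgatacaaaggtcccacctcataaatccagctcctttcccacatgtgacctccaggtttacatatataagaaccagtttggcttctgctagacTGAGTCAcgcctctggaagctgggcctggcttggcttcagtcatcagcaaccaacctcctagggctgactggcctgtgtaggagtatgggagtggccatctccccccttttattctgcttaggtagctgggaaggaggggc
Tlr2, chr3:83841609-83841858, minus strand, capitals mark 2 overlapping NF-kappaB matches: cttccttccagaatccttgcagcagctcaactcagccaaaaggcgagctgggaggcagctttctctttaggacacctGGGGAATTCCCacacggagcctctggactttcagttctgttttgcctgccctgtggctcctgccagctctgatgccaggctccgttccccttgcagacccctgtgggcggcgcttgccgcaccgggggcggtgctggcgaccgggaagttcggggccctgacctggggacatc
Myd88, chr9:119340019-119340268, minus strand, capitals mark 2 overlapping TATA matches and then a match to ISRE, the interferon response element: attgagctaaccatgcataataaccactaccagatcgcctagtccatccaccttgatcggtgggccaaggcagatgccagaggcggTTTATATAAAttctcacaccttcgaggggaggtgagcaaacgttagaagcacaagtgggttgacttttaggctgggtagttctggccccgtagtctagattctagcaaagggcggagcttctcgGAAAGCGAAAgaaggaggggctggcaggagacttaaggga

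The Il1b window held TATAAA from base -31 to base -26 relative to the start. The AP-1 match of Il1rn lay from base -141 to base -135 of its upstream start, and the windows of the 2 other Il1rn starts, which lie downstream within the gene, held none of the searched letters. A 3′ count cannot tell these starts apart. Among the 8 genes, PU.1 letters (GAGGAA) were found before Pycard, Casp1 and Nlrp3, and the C/EBP motif (TTGCNNAA) before Pycard. NF-kappaB letters were found before Nlrp3 as well as Tlr2, and TATA letters before Il18 as well as Il1b and Myd88. None of these motifs is particular to these genes. PU.1 letters were found in 23.3% of all 32851 promoter windows, TATAAA in 12.4%, C/EBP in 9.56%, NF-kappaB in 7.25%, AP-1 in 6.75% and ISRE in 2.98%. The matches are descriptions of sequence and were not tested for binding.

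Total counts ranged from 1820809 to 4257919 in the sham libraries and from 1237675 to 4738307 in the IZ libraries. Levels are given as CPM, counts per 1000000 counts of a library whose total was scaled by the trimmed mean of M-values (TMM), with the SD over mice, and fold changes come from edgeR's quasi-likelihood test over 12301 tested genes with Benjamini-Hochberg adjustment at 0.05. In that fit 69.5% of all tested genes were called and 36.3% were called higher in the IZ, so a call alone sets no gene apart. These shares depend on the scaling: with total counts alone 9203 genes were called higher and 1524 lower, against 4470 and 4074 here, and the 9 tested genes of the set were called higher either way. The cardiomyocyte markers were all lower in the IZ (10 of 10, summed level 68216 to 97333 CPM in sham and 2183 to 28288 CPM in IZ), and 11 of 12 macrophage markers were higher (449 to 653 CPM in sham and 2487 to 6064 CPM in IZ). The exception was Cd163, a marker of resident macrophages, which fell by 1.09 on the log2 scale. Of 10 neutrophil markers, 4 were tested and all 4 were higher (summed level 5.00 to 12.3 CPM in sham and 15.9 to 219.6 CPM in IZ), while Ly6g, a defining marker, had 0 counts in sham and 0 to 1 in IZ libraries. Camp, Ngp and Ltf had 1, 2 and 2 counts over the sham libraries and 5, 1 and 2 over the IZ libraries. Cxcr2 and Retnlg, also untested, had 5 and 4 sham counts and 47 and 34 IZ counts. The sum in the IZ rested mainly on S100a8, S100a9 and Csf3r (means of 34.2, 22.4 and 20.1 CPM). Monocyte markers were at 56.6 to 99.4 CPM in sham and 125 to 375 CPM in IZ, and lymphocyte markers at 2.23 to 4.75 and 7.61 to 24.4 CPM. Fibroblast markers were higher as well (7 of 8, summed level 1541 to 2981 CPM in sham and 12685 to 20695 CPM in IZ), while 4 of 8 endothelial markers and 4 of 6 smooth muscle and pericyte markers were lower and 1 of the latter was higher. The part of these cells in the results that follow was not tested, and in tissue libraries more cells of a type and more RNA per cell cannot be told apart. IZ replicate 1 stood apart, with 19.5% mitochondrial counts, 28288 CPM of cardiomyocyte markers (2183 to 6029 in the other 8) and the lowest macrophage marker sum.

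Of the 10 genes, 9 passed the filter on low counts and Nlrp3 did not. Myd88 and Pycard were above the filter level in every sham library and Tlr4 in 6 of 8, whereas Tlr2, Tlr7, Casp1, Il1b, Il1rn and Il18 were above it in at most 1 sham library and so passed through the IZ libraries. A gene that passes in this way is likely to be called, and the call of these 6 genes is therefore given with its size and counts. The 9 tested genes were each called higher in the IZ, beside the 36.3% of all tested genes, and for those 6 the filter itself favours such a call. Their values are shown by library.

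**Figure D1:**
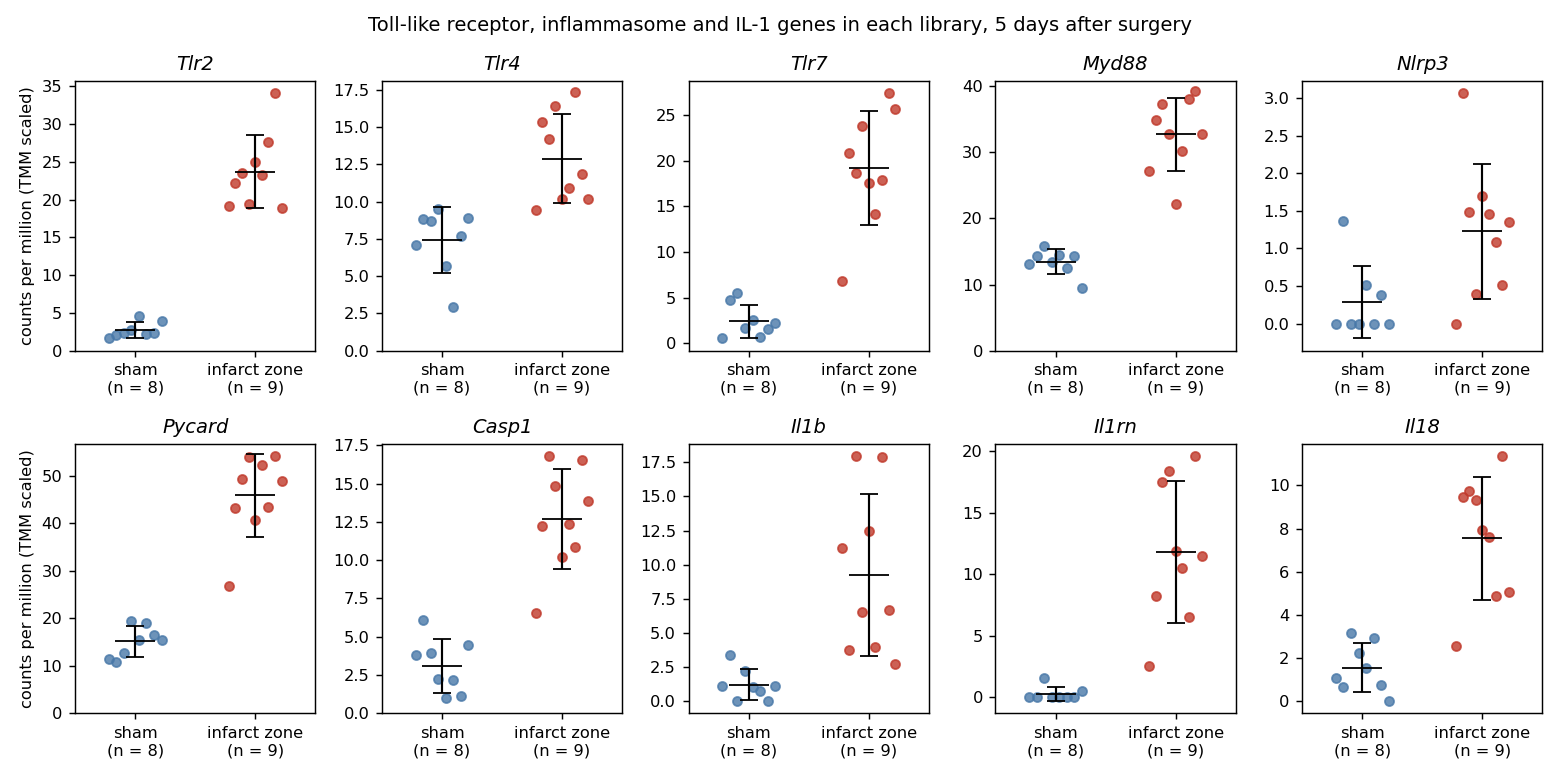
Level in CPM of the 10 genes in each library (points), with the group mean and SD (bars), for 8 sham and 9 IZ libraries, each panel on its own linear axis. The groups do not overlap for Tlr2, Tlr7, Myd88, Pycard, Casp1 and Il1rn, whereas 1 IZ library lies within the sham range for Tlr4, Il1b and Il18, and Nlrp3 lies near zero in both groups. Of all tested genes, 16.6% have every IZ library above every sham library. Tlr2, Tlr7, Casp1 and Il1rn passed the filter through the IZ libraries, which favours such a separation.

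TLR2 recognises lipoproteins together with TLR1 or TLR6. Tlr2 (ENSMUSG00000027995, chr3:83836272-83841767, minus strand) was at 1.64 CPM in the lowest sham library, 2.34 CPM at the median and 4.66 CPM in the highest, and at 18.9, 23.2 and 34.1 CPM in the IZ. Every IZ library was above every sham library, which was the case for 16.6% of all tested genes. The mean rose from 2.74 ± 1.02 CPM (SD, n = 8) to 23.7 ± 4.86 CPM (SD, n = 9), a log2 fold change of 3.06 ± 0.21 (SE, edgeR adjusted p = 1.55e-11). The sham values rested on 3 to 9 counts per library and the IZ values on 44 to 160. Among IZ libraries Tlr2 was one of the steadier genes of the set, with the highest library 1.80 times the lowest.

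TLR4, the receptor for bacterial lipopolysaccharide and for several damage signals, changed least. Tlr4 (ENSMUSG00000039005, chr4:66827584-66930284, plus strand) was at 2.94, 8.21 and 9.48 CPM in the lowest, median and highest sham library and at 9.42, 11.9 and 17.4 CPM in the IZ. The groups touched, with 8 of 9 IZ libraries above all sham libraries. The mean went from 7.42 ± 2.18 CPM (SD, n = 8) to 12.9 ± 2.997 CPM (SD, n = 9), a log2 fold change of 0.80 ± 0.20 (SE, edgeR adjusted p = 0.00109). A total of 24% of all tested genes had a higher fold change than Tlr4, against 3.25% for Tlr2.

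Tlr7 (ENSMUSG00000044583, chrX:167304929-167330558, minus strand), the endosomal receptor for single-stranded RNA, rose about as much as Tlr2. It was at 0.547, 1.95 and 5.54 CPM in the lowest, median and highest sham library and at 6.89, 18.6 and 27.4 CPM in the IZ. The groups did not overlap, although IZ replicate 1, the lowest IZ library, came close to the highest sham library. The mean went from 2.45 ± 1.81 to 19.2 ± 6.27 CPM (SD, n = 8 and 9), a log2 fold change of 3.04 ± 0.33 (SE, edgeR adjusted p = 2.29e-08). The sham libraries held 1 to 7 Tlr7 counts each.

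The ratio of Tlr2 to Tlr4 was compared within libraries, where it does not depend on the scaling. It was one of 4 ratios listed with earlier results of these data known, and it restates the unequal fold changes of the 2 genes. The log2 ratio of Tlr2 to Tlr4 counts (0.5 added to each) was -1.34 ± 0.68 in sham (SD, n = 8) and 0.88 ± 0.39 in the IZ (SD, n = 9). The ratio was higher in all 9 IZ libraries than in any sham library, by 2.22 on the log2 scale (exact permutation test, two-sided, p = 4.11e-05, the smallest value 24310 splits allow, adjusted p = 0.000165 over 4 ratios).

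MYD88 links all 3 of these receptors, and the IL-1 and IL-18 receptors, to IRAK kinases. Myd88 (ENSMUSG00000032508, chr9:119335934-119341411, minus strand) was at 9.44, 13.8 and 15.8 CPM in the lowest, median and highest sham library and at 22.1, 32.8 and 39.2 CPM in the IZ. All 9 IZ libraries exceeded all sham libraries. The mean rose from 13.4 ± 1.89 to 32.7 ± 5.54 CPM (SD, n = 8 and 9), a log2 fold change of 1.29 ± 0.14 (SE, edgeR adjusted p = 1.49e-08). It was also the gene of the set with the lowest relative spread in the IZ (CV 16.9%). The 3′ end of Myd88 shares 210 bases with Acaa1a on the opposite strand, a metabolic gene that went from 128 ± 27.5 to 76.4 ± 18.1 CPM. The counting mode for strand is not given in the sources used here, so reads in these bases could be counted for either gene.

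Nlrp3 (ENSMUSG00000032691, chr11:59541568-59566956, plus strand), the sensor after which the inflammasome is named, was close to the detection limit. The 8 sham libraries held 0 to 2 counts each and 4 in total, and the 9 IZ libraries held 0 to 22 each and 47 in total. The level was 0, 0 and 1.36 CPM in the lowest, median and highest sham library and 0, 1.35 and 3.06 CPM in the IZ, and 4 of 9 IZ libraries were above all sham libraries. Pooled over libraries, the IZ level was 5.11 times the sham level (95% exact interval 1.87 to 19.5, counting error only). With no filter on low counts, the log2 fold change was 2.09 ± 0.75 (SE, edgeR adjusted p = 0.0239), in a fit that called 20.9% of 27668 genes higher.

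Pycard (ENSMUSG00000030793, chr7:127989708-127993867, minus strand), encoding the adaptor ASC that joins the sensor to caspase-1, was at 10.9, 15.5 and 19.5 CPM in the lowest, median and highest sham library and at 26.8, 49.0 and 54.2 CPM in the IZ. The groups did not overlap, and the lowest IZ value, replicate 1, lay apart from the other 8. The mean rose from 15.2 ± 3.27 to 45.9 ± 8.68 CPM (SD, n = 8 and 9), a log2 fold change of 1.59 ± 0.15 (SE, edgeR adjusted p = 3.54e-09). An overlapping gene on the opposite strand, Gm45205, had 1 count in sham and 3 in IZ libraries and shares 145 bases with the Pycard 3′ end.

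Casp1 (ENSMUSG00000025888, chr9:5298517-5307265, plus strand), the protease that cuts the IL-1β and IL-18 precursors, was at 1.04, 3.03 and 6.11 CPM in the lowest, median and highest sham library and at 6.52, 12.3 and 16.8 CPM in the IZ. Again all 9 IZ libraries were above the sham range, narrowly so for replicate 1. The log2 fold change was 2.09 ± 0.28 (SE, edgeR adjusted p = 7.32e-07), with means of 3.12 ± 1.76 and 12.7 ± 3.27 CPM (SD, n = 8 and 9).

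Il1b (ENSMUSG00000027398, chr2:129364570-129371139, minus strand), encoding the inflammatory cytokine IL-1β, differed more between IZ libraries than any other tested gene of the set, with a CV of 63.9%. It was at 0, 1.06 and 3.39 CPM in the lowest, median and highest sham library and at 2.70, 6.71 and 18.0 CPM in the IZ. Of the IZ libraries 8 were above the sham range, and IZ replicate 9 was within it. The mean rose from 1.2 ± 1.13 to 9.25 ± 5.91 CPM (SD, n = 8 and 9), a log2 fold change of 2.93 ± 0.54 (SE, edgeR adjusted p = 4.17e-05). The 16 sham counts, 0 to 5 per library, limit the sham level, and the IZ libraries held 8 to 109 counts. On the log2 scale the SD over IZ libraries was 0.95 for Il1b and 0.88 for Il1rn, against 0.26 (Myd88) to 0.64 (Il18) for the other tested genes of the set.

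Il18 (ENSMUSG00000039217, chr9:50554827-50581840, plus strand), the other cytokine cut by caspase-1, was at 0, 1.32 and 3.17 CPM in the lowest, median and highest sham library and at 2.54, 7.93 and 11.4 CPM in the IZ. IZ replicate 1 was within the sham range and the other 8 were above it. The mean rose from 1.55 ± 1.13 to 7.54 ± 2.84 CPM (SD, n = 8 and 9), a log2 fold change of 2.37 ± 0.39 (SE, edgeR adjusted p = 9.34e-06). The overlapping genes of the opposite strand, Bco2 and Tex12, had 3 and 1 counts over the sham libraries and 26 and 0 over the IZ libraries.

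Il1rn (ENSMUSG00000026981, chr2:24336853-24351494, plus strand), encoding the IL-1 receptor antagonist, had the largest fold change of the set. In sham hearts 6 of 8 libraries had no Il1rn count and the total was 3, and in the IZ there were 7 to 106 counts per library and 399 in total. The level was 0, 0 and 1.58 CPM in the lowest, median and highest sham library and 2.54, 11.5 and 19.6 CPM in the IZ, with no overlap. The log2 fold change was 5.52 ± 0.61 (SE, edgeR adjusted p = 3.31e-08), with means of 0.267 ± 0.566 and 11.9 ± 5.76 CPM (SD, n = 8 and 9). With so few sham counts the size is uncertain: the pooled ratio was 57.8, with a 95% exact interval from 19.6 to 281 that covers counting error only. Of the 12301 tested genes, 10 had a higher fitted log2 fold change.

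Agonist and antagonist were then compared library by library. In IZ replicates 1 to 9, in order, Il1b was at 11.2, 3.76, 18.0, 6.53, 12.5, 3.99, 17.9, 6.71 and 2.70 CPM. Il1rn was at 2.54, 8.21, 17.5, 18.4, 11.9, 10.5, 6.51, 19.6 and 11.5 CPM in the same order. Il1rn exceeded Il1b in 5 libraries. In replicates 3 and 5 the counts were nearly equal (106 Il1rn against 109 Il1b, and 21 against 22), and in replicates 1 and 7 Il1rn was lower (7 against 31, and 12 against 33). The Il1rn to Il1b ratio spanned 17.05-fold over the IZ libraries.

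**Figure D2:**
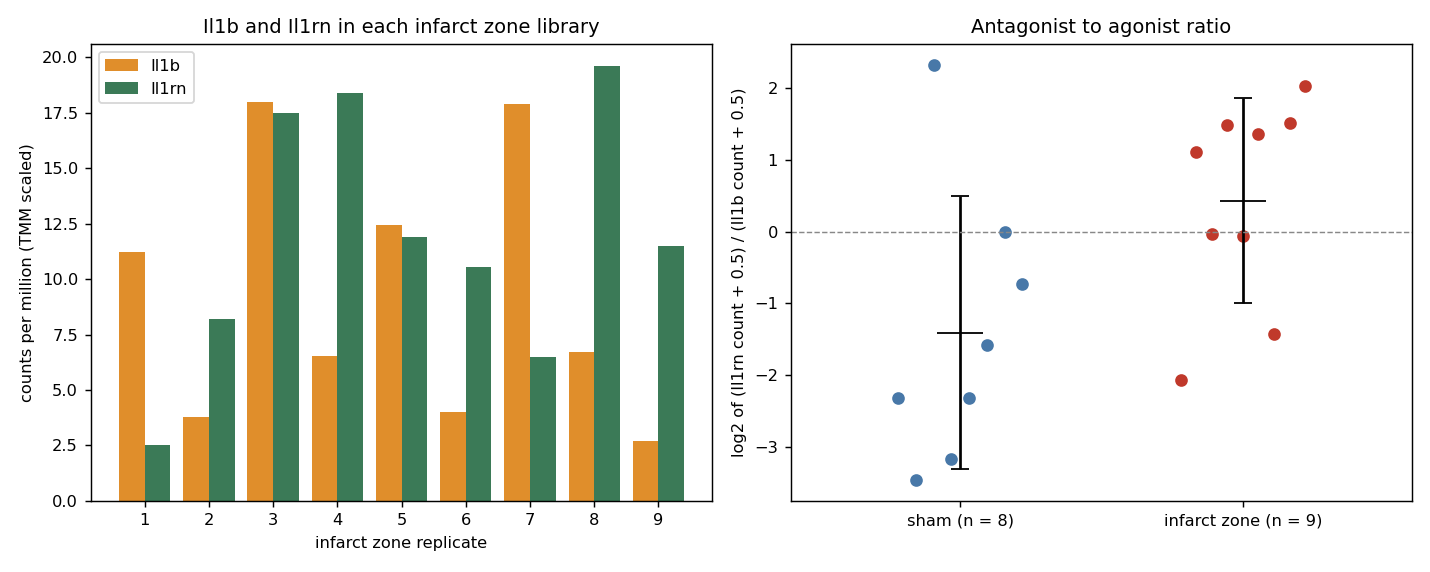
Left, Il1b and Il1rn in CPM in each of the 9 IZ libraries (bars from zero). Right, the log2 ratio of Il1rn to Il1b counts in each library (points) with group mean and SD (bars), where the dashed line marks equal counts. Il1rn is the lower bar in replicate 1 (2.54 against 11.2 CPM) and the higher one in replicate 9 (11.5 against 2.70 CPM).

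The log2 Il1rn to Il1b ratio had a mean of -1.41 ± 1.90 in sham (SD, n = 8) and 0.43 ± 1.43 in the IZ (SD, n = 9). The difference of 1.84 did not pass the threshold after adjustment over 4 ratios (exact permutation test, two-sided, p = 0.0410, adjusted p = 0.0547), and the groups overlapped. The sham ratios rested on 3 Il1rn and 16 Il1b counts in total. Without sham replicate 3, which held 2 of those 3 Il1rn counts, the difference was 2.37 (exact permutation test, adjusted p = 0.00804), and with 5 added to each count it was 0.74 (exact permutation test, adjusted p = 0.151).

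The other decoys were read in the same way. IL-18 binding protein, the soluble inhibitor of IL-18, was at 7.92 ± 3.22 CPM in sham and 10.5 ± 4.19 CPM in the IZ (SD, n = 8 and 9), and Il18bp was not called (log2 fold change 0.43 ± 0.28, edgeR adjusted p = 0.167). The log2 Il18bp to Il18 ratio was 2.37 ± 0.89 in sham and 0.46 ± 0.99 in the IZ, lower than every sham library in 7 of 9 IZ libraries (difference -1.92, exact permutation test, adjusted p = 0.00189). Like the ratio of Tlr2 to Tlr4, this fall restates unequal fold changes, here of Il18 (2.37 on the log2 scale) and Il18bp (0.43). Il18 passed the filter through the IZ libraries, so the p-value sets neither gene apart. The share of other gene pairs that separate as far was not computed. With 5 added to each count the difference was -0.89 (exact permutation test, adjusted p = 0.0278), and sham Il18 rested on 0 to 4 counts per library. Il1r2, which encodes a decoy receptor that binds IL-1 without signalling, was not tested, with 0 to 1 counts per sham library and 0 to 77 per IZ library, and its pooled level was 29.5 times higher in the IZ (95% exact interval 9.97 to 144). The signalling receptor Il1r1 rose from 12.1 ± 3.16 to 41.9 ± 12.5 CPM (log2 fold change 1.81 ± 0.20, edgeR adjusted p = 2.22e-08). The log2 Il1r2 to Il1r1 ratio was -4.77 ± 1.05 in sham and -3.33 ± 1.75 in the IZ, a difference of 1.44 that did not pass the threshold (exact permutation test, adjusted p = 0.0624). It was 1.94 without IZ replicate 1, the library with 0 Il1r2 counts (exact permutation test, adjusted p = 0.00352), and -0.46, the opposite sign, with 5 added to each count (exact permutation test, adjusted p = 0.239).

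The other genes of the pathway were read from 9 lists by role, 121 genes in all, of which 115 were in the table and 88 were tested. Of these, 55 were higher in the IZ, 15 lower and 18 not called, that is 62.5% higher beside 36.3% of all tested genes. The lists were written with earlier results of these data known, and no test of the lists as groups was made. As with the members, 25 of the 88 were above the filter level in at most 1 sham library and so passed through the IZ libraries, and all 25 were called higher. Among those named in the next paragraphs these are Tlr1, Tlr13, Ly96, Irak3, Irak4, Irf5, Nfkbie, Aim2, Mefv, Naip2, P2rx7, Il1rap, Il1rl2, Ccl3 and Ccl4, and the share of 62.5% rests in part on them.

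**Figure D3:**
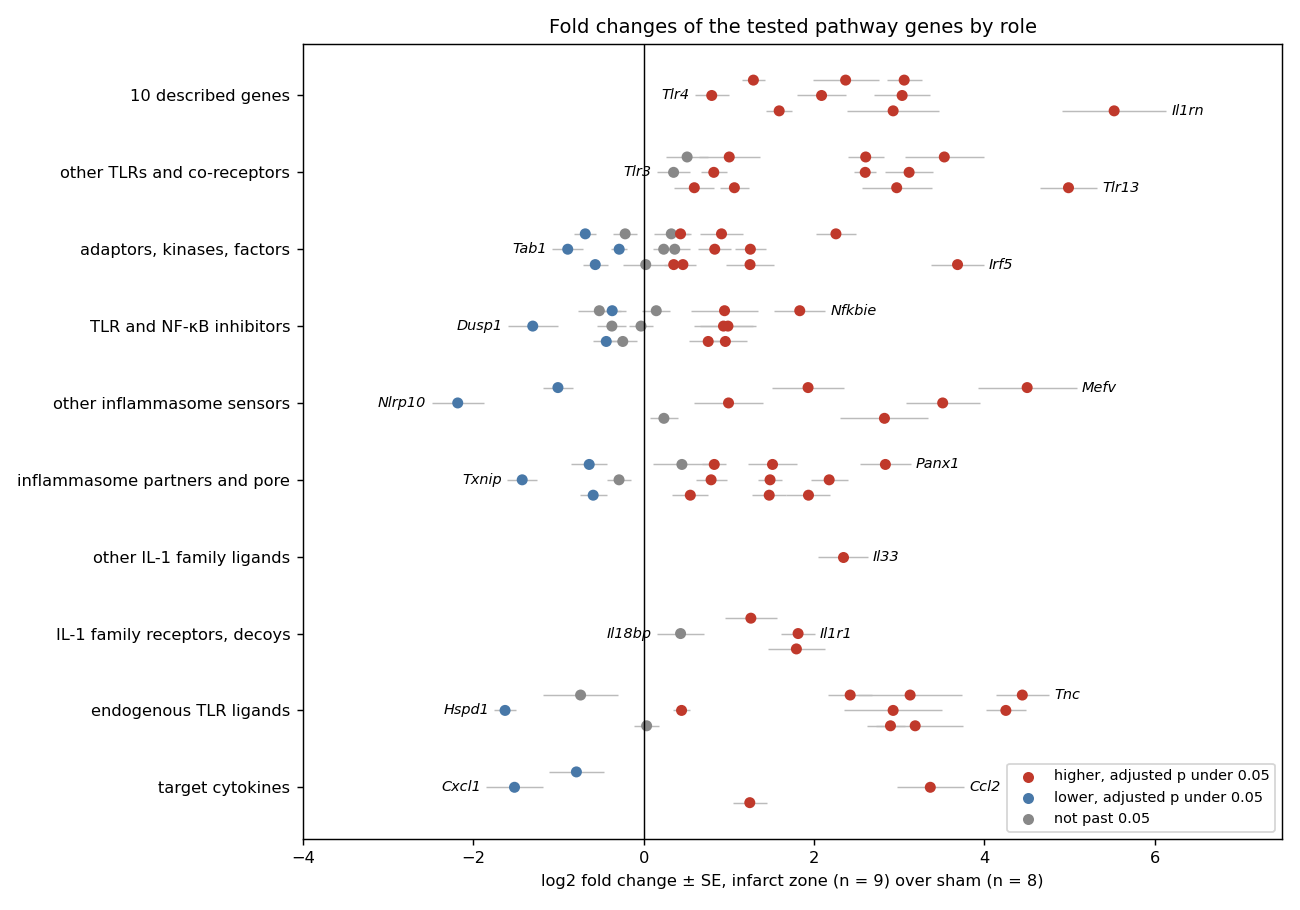
Log2 fold change (IZ over sham, with SE) of each tested gene by role, coloured by edgeR call, with the highest and lowest gene of each list named. Ccl3 and Ccl4, which had no sham count, are left out. The described genes lie from 0.80 (Tlr4) to 5.52 (Il1rn), and the lists of adaptors and of inhibitors lie on both sides of zero.

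Among other Toll-like receptors and their co-receptors, 12 of 18 were tested, 10 were higher and 2 were not called. Tlr13, a mouse receptor for bacterial ribosomal RNA, rose most, from 0.975 ± 0.694 to 30.5 ± 9.72 CPM (pooled ratio 35.4, 95% exact interval 20.6 to 66.7, edgeR adjusted p = 1.53e-11), and every IZ library was above every sham library. Cd14, the lipopolysaccharide co-receptor of TLR4, rose from 9.35 ± 3.94 to 55.9 ± 11.8 CPM (log2 fold change 2.61 ± 0.21, edgeR adjusted p = 2.95e-10), and Ly96, which encodes the TLR4 partner MD-2, had a log2 fold change of 1.01 ± 0.36 (edgeR adjusted p = 0.0166). Tlr1, which pairs with TLR2, rose by a log2 fold change of 2.97 ± 0.41 (edgeR adjusted p = 8.82e-07), and Unc93b1, the chaperone that carries TLR7 to endosomes, rose by 2.60 ± 0.13 on the log2 scale (edgeR adjusted p = 2.6e-13). Tlr3, the endosomal receptor for double-stranded RNA, was not called (0.35 ± 0.20, edgeR adjusted p = 0.117). Tlr8 had no count in any of the 17 libraries, which allows up to 0.214 CPM in sham and 0.0928 CPM in the IZ (3 counts over the group).

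The adaptors, kinases and transcription factors were mixed, with 9 of 18 tested genes higher, 4 lower and 5 not called. Irf5, a transcription factor used by TLR7 and MYD88, was highest (log2 fold change 3.69 ± 0.31, edgeR adjusted p = 3.67e-10), and Tab1, a partner of the kinase TAK1, was lowest and fell by 0.89 ± 0.18 on the log2 scale (edgeR adjusted p = 1.6e-04). Irak4, the first kinase recruited by MYD88, rose by 2.26 ± 0.23 on the log2 scale (edgeR adjusted p = 9.79e-09), and Traf6, which acts after it, was not called (0.33 ± 0.21, edgeR adjusted p = 0.164). Of 14 inhibitors of the pathway, 6 were higher, 3 lower and 5 not called. Irak3, a kinase relative that blocks the MYD88 complex, rose by 0.99 ± 0.33 on the log2 scale (edgeR adjusted p = 0.00964). Nfkbie, an inhibitor of NF-kappaB, was highest (1.83 ± 0.30), and Dusp1, a phosphatase that ends MAP kinase signals, fell by 1.30 ± 0.29 on the log2 scale (edgeR adjusted p = 4.2e-04).

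Several other inflammasome sensors had more counts than Nlrp3. Of 16 listed, 15 were in the table and 8 were tested, of which 5 were higher, 2 lower and 1 not called. Mefv, encoding pyrin, was highest in fold change, with 3 counts over all sham libraries and 202 over the IZ libraries (pooled ratio 29.3, 95% exact interval 9.87 to 143, edgeR adjusted p = 3.29e-07). Naip2 (3.51 ± 0.44), a sensor of bacterial secretion systems, and Aim2 (2.83 ± 0.52), a sensor of DNA in the cytosol, also rose (edgeR adjusted p = 1.86e-07 and 3.9e-05). Nlrp10, which was lowest, fell by 2.18 ± 0.31 on the log2 scale (edgeR adjusted p = 1.23e-06). Nlrc4, the partner of the NAIP proteins, was not tested, with 2 sham and 52 IZ counts.

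Of 14 inflammasome partners and pore genes, 9 were higher, 3 lower and 2 not called. Gsdmd, encoding the pore protein that caspase-1 opens, rose from 7.52 ± 2.61 to 20.8 ± 4.63 CPM (log2 fold change 1.47 ± 0.20, edgeR adjusted p = 6.71e-07). Panx1, a membrane channel for ATP, was highest (2.84 ± 0.30, edgeR adjusted p = 1.25e-08), and P2rx7, the ATP receptor that triggers NLRP3, rose by 2.18 ± 0.22 (edgeR adjusted p = 5.97e-09). Txnip, a thioredoxin-binding protein also known as a metabolic gene, was lowest and fell by 1.43 ± 0.17 on the log2 scale, from 587 ± 139 to 219 ± 67.0 CPM. Nek7, a kinase that NLRP3 needs for assembly, was at 56.7 ± 9.84 CPM in sham and 46.4 ± 10.4 CPM in the IZ and was not called (edgeR adjusted p = 0.0644).

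Of the other IL-1 family ligands, Il33, an alarmin of stromal cells, rose from 6.65 ± 3.98 to 33.9 ± 11.98 CPM (log2 fold change 2.34 ± 0.29, edgeR adjusted p = 2.27e-07). Il1a, the other agonist of the IL-1 receptor, had no sham count and 8 counts over the 9 IZ libraries, and Il36g had the same totals. For both, the measured IZ level was 1.16 times the limit of 3 counts over the sham group. Counting error in the 8 IZ counts is not covered by this value, so no rise is shown. The remaining 4 ligands of the list (Il36a, Il36b, Il36rn and Il1f10) were not analysed here. Of the receptors, Il1rap, the shared signalling subunit, rose by 1.26 ± 0.31 on the log2 scale (edgeR adjusted p = 8.58e-04), and Il1rl2, the IL-36 receptor, by 1.79 ± 0.33 (edgeR adjusted p = 4.68e-05). Il1rl1, the IL-33 receptor, had 14 sham and 17 IZ counts and was not tested, nor were the IL-18 receptor subunits Il18r1 (7 and 65 counts) and Il18rap (3 and 77 counts).

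Among 11 measured endogenous ligands of Toll-like receptors, 8 were higher, 1 lower and 2 not called. Tnc, encoding the matrix protein tenascin-C, was highest (9.29 ± 5.52 to 200.3 ± 61.7 CPM, log2 fold change 4.45 ± 0.31, edgeR adjusted p = 2.79e-11), and Hspd1, a mitochondrial chaperone, was lowest and fell by 1.63 ± 0.13 on the log2 scale. Of 13 target cytokines and enzymes, 6 were tested, 4 were higher and 2 lower. Ccl4 and Ccl3, macrophage chemokines, had no sham count and 325 and 200 IZ counts. Their measured IZ levels were 47.1 and 29.0 times the limit of 3 counts over the sham group. Both passed the filter through the IZ libraries alone. Cxcl1, a neutrophil chemokine, was lowest and fell from 20.03 ± 7.93 to 7.02 ± 4.29 CPM (edgeR adjusted p = 3.16e-04). Tnf was near the limit in both groups, with 13 sham and 17 IZ counts and a pooled ratio of 0.568 (95% exact interval 0.260 to 1.27). Il6 was not tested, and its pooled ratio was 13.1 (95% exact interval 5.50 to 41.0), from 5 sham and 151 IZ counts.

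The members were next set against the summed counts of the 12 macrophage markers in the same library, which asks whether a gene and these markers changed by unequal amounts. The log2 ratio to the marker sum fell for Tlr4 by 2.30, for Myd88 by 1.84 and for Pycard by 1.52 (exact permutation test, two-sided, adjusted p = 1.37e-04 for each, over 10 genes). For these 3 genes all 9 IZ libraries lay below all sham libraries. The share of all tested genes that did so was not computed. Like the ratio of Tlr2 to Tlr4, these falls restate unequal fold changes, here of each gene and of the markers. Only 11.5% of tested genes had a higher log2 fold change than Pycard, so most genes would fall at least as far against the sum. The p-values therefore set none of these 3 genes apart from other tested genes. Casp1 fell by 1.03 (exact permutation test, adjusted p = 0.00439), and by 0.44 with the geometric mean of the markers in place of their sum (exact permutation test, adjusted p = 0.148). Nlrp3 fell by 1.87 with 0.5 added to its counts (exact permutation test, adjusted p = 0.00206), and by 0.79 with counts pooled per group and nothing added, so the size for this sparse gene depends on the added value.

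For Tlr2 the log2 ratio to the marker sum was -7.49 ± 0.45 in sham and -7.58 ± 0.36 in the IZ, and for Tlr7 it was -7.86 ± 0.90 and -7.94 ± 0.27 (SD, n = 8 and 9). Neither difference passed the threshold (exact permutation test, adjusted p = 0.754 and 0.808). With the geometric mean of the markers in place of their sum, the differences had the opposite sign, 0.51 for both genes (exact permutation test, adjusted p = 0.0615 and 0.148). Il1b and Il18 differed by -0.26 and -0.80 (exact permutation test, adjusted p = 0.754 and 0.113), and by 0.33 and -0.21 with the geometric mean (exact permutation test, adjusted p = 0.654 for each). With 5 added to each count in place of 0.5, these 4 genes all passed the threshold, with lower ratios in the IZ (-0.94 for Tlr2, -1.12 for Tlr7, -1.84 for Il1b and -2.04 for Il18), because the added value is large beside sham counts of 0 to 9. Pooled counts with nothing added gave -0.11, -0.04, -0.18 and -0.64. Against the marker sum, Il1rn alone had a higher ratio in the IZ, by 1.58 (exact permutation test, adjusted p = 0.00439) and by 2.71 with pooled counts. With 5 added the difference was -1.10, where 3 sham counts over 8 libraries are outweighed by what is added. This difference also restates unequal fold changes, here of Il1rn (5.52 on the log2 scale) and of the markers. Il1rn passed the filter through the IZ libraries, so the p-value adds nothing to its fold change.

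**Figure D4:**
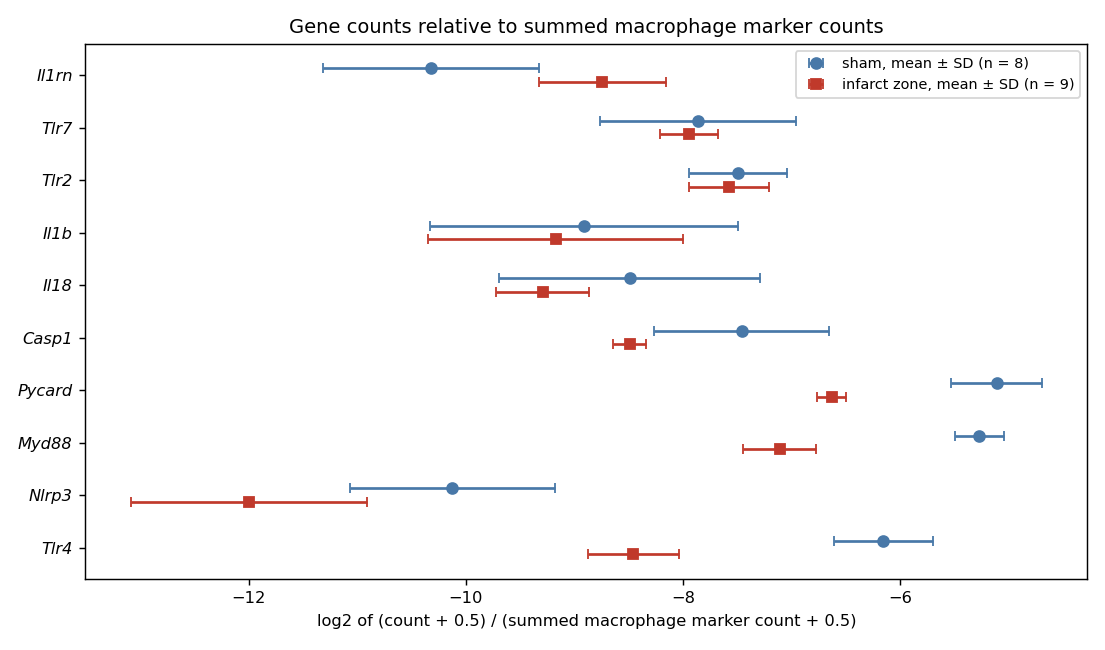
Mean and SD over libraries of the log2 ratio of each gene's count to the summed macrophage marker count, 0.5 added to both, in 8 sham (circles) and 9 IZ (squares) libraries, ordered by the difference. Tlr4, Myd88 and Pycard lie lower in the IZ with no overlap of libraries, the Tlr2 and Tlr7 means differ by -0.08 (IZ minus sham), and Il1rn lies higher. The differences restate the unequal fold changes of each gene and of the markers. The share of all tested genes without overlap in this ratio was not computed.

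Within the IZ, genes of the set followed the macrophage marker sum to different degrees. Lyz2 alone held 2742 of the mean of 4594 CPM of this sum, and no other summary of the markers was used for these relations. The log2 level of Tlr7 (r = 0.954, rho = 0.850), Pycard (r = 0.933, rho = 0.833), Casp1 (r = 0.924, rho = 0.867) and Il1rn (r = 0.914, rho = 0.817) was related to the log2 macrophage marker sum over 9 libraries. All 4 passed the threshold among 20 relations (exact permutation of pairings, adjusted p = 0.0117 for r of each gene, and 0.0331 to 0.0359 for rho). The share of all tested genes that follow the marker sum as closely was not computed, so these p-values set none of the 4 genes apart. Il18 did not (r = 0.793, rho = 0.633, exact permutation, adjusted p = 0.0754 and 0.217), nor did Tlr2 (r = 0.383), Tlr4 (r = 0.264), Myd88 (r = 0.455) or Nlrp3 (r = 0.466). Il1b had a negative r of -0.376 (rho = -0.400, exact permutation, adjusted p = 0.388 and 0.485).

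These relations rest in part on IZ replicate 1, which held the most cardiomyocyte transcripts. Without replicates 1 and 8, the libraries farthest from the median marker sum, r was 0.721 for Tlr7, 0.618 for Pycard, 0.687 for Casp1 and 0.625 for Il1rn. None of these passed the threshold (exact permutation of pairings, 7 libraries, p = 0.0698, 0.141, 0.0889 and 0.133, adjusted p = 0.198, 0.235, 0.198 and 0.235 over 20 relations). In the same 7 libraries r was 0.0063 for Il18 and -0.922 for Tlr2, the latter opposite in sign to its r over all 9 (exact permutation of pairings, p = 0.986 and 0.00397, adjusted p = 0.986 and 0.0794 over 20 relations). Without replicate 1 alone, r was 0.812 for Tlr7, 0.704 for Pycard, 0.765 for Casp1 and 0.730 for Il1rn. None of these passed the threshold either (exact permutation of pairings, adjusted p = 0.211, 0.212, 0.211 and 0.211 over 20 relations). Also without replicate 1, r was 0.351 for Il18, 0.119 for Tlr2 and -0.405 for Il1b. With the neutrophil marker sum, which ranged from 15.9 to 219.6 CPM in the IZ, Tlr4 had r = 0.748 and rho = 0.867 (exact permutation, adjusted p = 0.0717 and 0.0331) and Myd88 r = 0.718 and rho = 0.833 (exact permutation, adjusted p = 0.0864 and 0.0331), so these passed by rank and not by r. Without IZ replicates 3 and 7, the farthest from the median neutrophil marker sum, r was 0.610 for Tlr4 and 0.627 for Myd88. For Il1b, r with the neutrophil markers was 0.300, 0.616 without replicate 1 and -0.558 without replicates 3 and 7, so it has no settled sign.

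**Figure D5:**
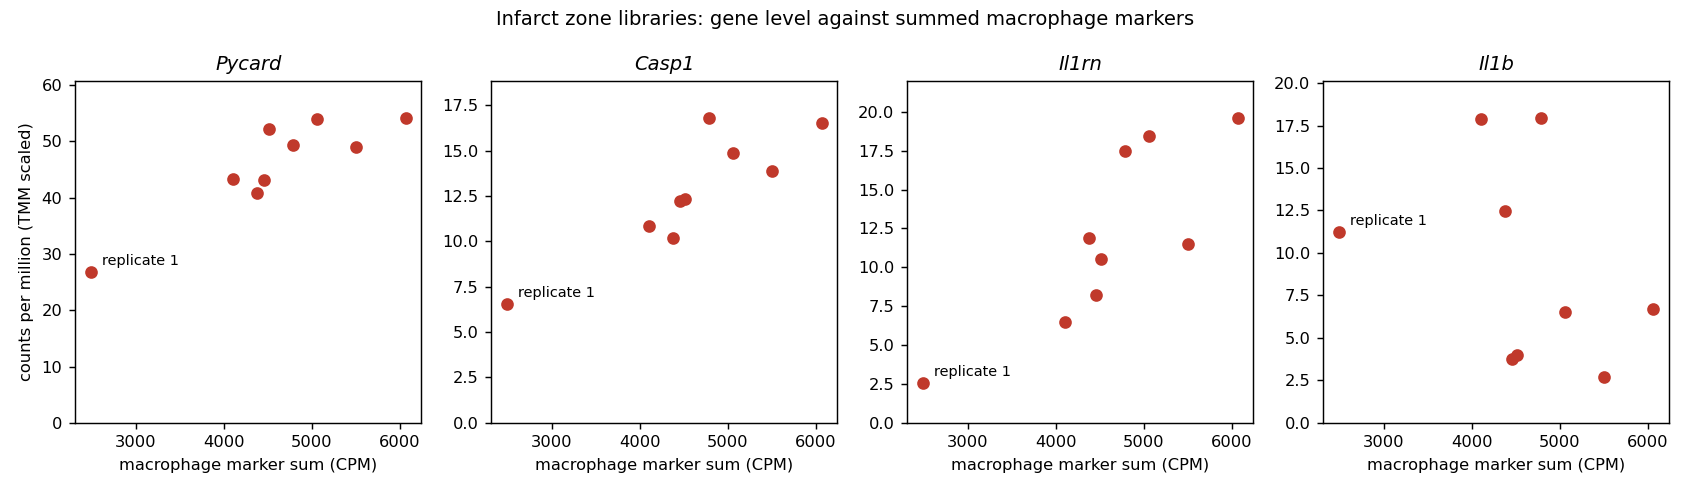
Level in CPM of Pycard, Casp1, Il1rn and Il1b (vertical axes, from zero) against the summed CPM of 12 macrophage markers (horizontal axis, not from zero) in the 9 IZ libraries. Pycard, Casp1 and Il1rn are lowest in replicate 1, where the marker sum is 2487 CPM, and Il1b does not follow the marker sum (r = -0.376).

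Relative to the macrophage marker sum, Pycard varied by 1.30-fold and Casp1 by 1.47-fold over the 9 IZ libraries. Il1rn varied by 3.35-fold, Il1b by 8.79-fold and the sparse Nlrp3 by 9.64-fold. The other genes lay between, from 1.66-fold (Tlr7) to 2.29-fold (Tlr4). These ranges include counting error, which is larger for Il1rn (7 to 106 counts per library) and Il1b (8 to 109) than for Pycard (72 to 310). Among the 45 pairs of the 10 genes within the IZ, 4 passed the threshold by r: Pycard with Casp1 (r = 0.931, rho = 0.850), Casp1 with Il1rn (0.928, 0.783), Pycard with Il1rn (0.906, 0.750) and Il1rn with Il18 (0.882, 0.783), with exact permutation adjusted p from 0.0331 to 0.0465 for r and from 0.258 to 0.280 for rho. Leaving out replicate 1 lowered these to between 0.676 and 0.796. Il1b had no such partner, with r from -0.334 (Tlr7) to 0.318 (Tlr2). With Il1rn its r was -0.152 and its rho 0.033, so no relation between their levels was shown. These pairs were computed after the spread of Il1b had been seen, and they share libraries and their depth. The share of all pairs of tested genes related as closely was not computed.

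Of genes with at least 10 CPM in the IZ, those most like each member across the 9 IZ libraries were named by r of log2 CPM, with no test, among 9154 genes. Il1rn was closest to Capg (0.980), an actin-capping protein of myeloid cells, to Plin2 (0.968), which coats lipid droplets, and to the macrophage marker Cd68 (0.956). Casp1 was closest to Atp8b4, Plek and Lcp1 (0.965 to 0.973), the last 2 being cytoskeletal genes of blood cells. Pycard was closest to Gm6681, Gm7536 and then Cd68 (0.971 to 0.978), Il18 to Gm7117, Tmem165 and then the macrophage marker Adgre1 (0.953 to 0.961), and Tlr7 to Rpl9-ps6, Gm6285 and Gm8624 (0.960 to 0.966). For Tlr2 they were Gmeb1, Zcrb1 and Rbbp9, for Tlr4 Srp9, Sash1 and Ugcg, for Myd88 Nagpa, Med15 and Psmg4, and for Nlrp3 Chst12, Dapp1 and Col5a1 (0.927 to 0.977). The closest genes to Il1b were Etf1, Pmpca and S1pr3 (0.870 to 0.891), a lower likeness than for any other member. With 9 libraries and so many genes, high values of r arise for any gene, and nothing is read from the names.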

How the data were processed

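The authors isolated total RNA from each heart and made 3′ end libraries with molecular identifiers (MACE-Seq). The study's methods and the submitters' processing notes name bcl2fastq, Cutadapt, Bowtie2, HTSeq and build mm10. The deposited file holds raw counts per gene, as whole numbers, made by the authors after removal of PCR copies. Annotation release and strand setting are not given in the sources used here. All 17 heart columns were matched to samples by name. Genes were named and placed with a GENCODE annotation of GRCm38, for 31521 of the 31647 rows. Another 35 rows hold merged identifiers of overlapping genes and were kept, and none of them is a gene named here.

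Counts were scaled by TMM and tested with edgeR 4.0.16 in R 4.3.3 (quasi-likelihood, two-sided, filterByExpr with a minimum count of 10, Benjamini-Hochberg over all tested genes, 0.05), without covariates. DESeq2 1.42.0, other scalings, filters and a thinned depth, single libraries left out and a replicate block were alternatives. Ratios used counts plus 0.5 and exact permutation of the 8 sham and 9 IZ libraries (24310 splits), and relations used log2 CPM with a prior count of 1 and all 362880 pairings (SciPy 1.17.1). Intervals of pooled ratios are exact binomial (Clopper-Pearson) at 95% and cover counting error only. Genes sharing 3′ ends were sought with BLAST 2.17.0, at 95% identity over at least 100 bases.

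The 10 genes and the pathway and marker lists were chosen with earlier results of these data known. The text names every member, the highest and lowest gene of each list, each IL-1 family ligand and receptor, and partners of members; Naip2, Aim2, P2rx7, Panx1, Txnip, Nek7, Tlr1, Tlr3, Unc93b1, Irak4, Traf6 and Nlrc4 were added for their role after their values were seen where that rule did not name them. Scripts were tested on simulated counts. Each library is 1 mouse, the labels give no batch, and kidney samples of the study were not analysed here.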

Additional observations from a re-analysis of the deposited data

Results flagged for a closer look

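Among 28 groups of library values examined, 3 held a library whose gap to the nearest other library was large beside the group's whole range, where chance gives about 1 in 20. Nlrp3 stood at 1.36 CPM in sham replicate 2, which is 2 counts, and Il1rn stood at 1.58 CPM in sham replicate 3, also 2 counts, while 5 and 6 of the 8 sham libraries had no count of these genes. Pycard stood at 26.8 CPM in IZ replicate 1, below the other 8 IZ libraries and above the highest sham library at 19.5 CPM. That library also held 19.5% mitochondrial counts and the lowest macrophage marker sum, and their part in the Pycard value was not tested. Without it the Pycard log2 fold change was 1.63 (edgeR's quasi-likelihood test, adjusted p = 9.51e-12).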

How the results depend on the processing

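The 9 tested genes kept their direction and their call in all 201 combinations of gene and alternative in which they could be fitted. The genes called numbered 8544 in the main analysis, and 5239 with a minimum mean of 50 counts, where only Myd88 and Pycard of the set were tested and 2 members were called. Members called ranged from 6 to 9 when 1 library was left out, because Il1b, Il1rn or Il18 then missed the filter without an IZ library. They numbered 7 after thinning to the smallest total and 10 with no filter or with DESeq2, where Nlrp3 had a log2 fold change of 2.15 ± 0.91 (SE, adjusted p = 0.0329). Scaling by total counts alone raised the median log2 fold change of all genes by 1.09, with 9203 genes higher and 1524 lower, and Tlr4 then stood at 1.90. The replicate numbers only name mice: deviations of same-numbered libraries correlated from -0.216 to 0.128, only number 8 correlated best with its own, and with a replicate block 8079 genes and 9 members were called. The log2 difference in the Il1rn to Il1b ratio passed the threshold as a difference in medians (3.07), ranged from 1.55 to 2.37 with 1 library left out and was 0.74 with 5 added to each count (adjusted p = 0.151). For Il1r2 to Il1r1 the difference in medians was 1.88, the range was 1.19 to 1.94, and with 5 added to each count it was -0.46. The Il1rn ratio to macrophage markers reversed to -1.10 with 5 added. Of 100 alternatives to the relations with marker sums, 8 lost and 5 gained a call, the latter all with total count scaling. The depth leaves Nlrp3, Il1rn in sham and Tnf at a few counts per library.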
